A study of Homo sapiens with 15 samples.

Results

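The immediate early transcription factors described here are 10 genes, EGR1, EGR2, EGR3, FOS, FOSB, FOSL1, JUN, JUNB, NR4A1 and NR4A3, followed through lung fibroblasts and small cell lung cancer (SCLC) cells that shared a culture. They were chosen by symbol, and all 10 were found among the 16382 genes listed for fibroblasts and among the 16076 genes listed for SCLC cells. Because the genes were picked with their levels and directions in these libraries in view, their values are a description and carry no test. Tests were kept for other genes of the pathway. Their lists were also chosen with earlier results of these data known, so the calls and adjusted p-values of list genes are not free of that choice.

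Immediate early genes are transcribed within minutes of a stimulus without new protein synthesis, and most of their transcripts are short-lived. Growth factors reach them through the ERK kinases, which activate factors bound to SRF at CArG boxes, while cyclic AMP and calcium act through CREB at its response element (CRE). EGR factors are zinc finger activators of GC-rich sites, FOS and JUN proteins pair to form AP-1, and NR4A proteins are orphan nuclear receptors that need no known hormone. In fibroblasts they belong to the serum and wound response, and FOSL1 (FRA-1) is a common AP-1 member of mesenchymal-type carcinoma cells.

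MRC5 is a line of human lung fibroblasts, H69 a neuroendocrine (NE) SCLC line and H196 a non-NE SCLC line. MRC5 cells were cultured alone (MRC5_Mo), with H69 (MRC5_coH69) or with H196 (MRC5_coH196), and H196 cells were cultured alone (H196_Mo) or with MRC5 (H196_Co), with 3 libraries in each of these 5 groups and 15 in all. The partners shared medium for a week across the membrane of a transwell insert and did not touch, and each library was made from 1 of the partners. Each cell type is represented by 1 line, SCLC lines and fibroblasts were otherwise kept in different media (RPMI 1640 and MEM), and no H69 cells were sequenced. Messenger RNA was captured with oligo(dT) beads, so a level is a steady-state amount of polyadenylated RNA at the end of the culture and not a response within minutes. In such bulk libraries fewer cells with a transcript and less of it per cell cannot be told apart.

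Libraries held 16073584 to 19170550 expected counts. All 8 fibroblast markers were above 1 CPM (counts scaled to the library total) in MRC5 groups, with a summed level of 26708 to 29720 CPM in MRC5_Mo, 30575 to 31614 in MRC5_coH69 and 12604 to 13346 in MRC5_coH196, against 2.05 to 3.09 in H196 libraries. The part of this lower fibroblast marker level in the values of MRC5_coH196 below was not tested. All 5 non-NE markers were above 1 CPM in H196 cells, with a sum of 5317 to 6168 CPM, but also in MRC5 groups, with a sum of 6854 to 10546, so they do not separate the lines. Transcripts of 95 genes found in H196 but not in MRC5_Mo stood in MRC5_coH196 at a median of 0.148% to 0.729% of their level in H196_Co. The part of that RNA in the member values was not tested. Counting all tested genes, 31.9% passed the call, which asked for an adjusted p under 0.05 together with a log2 fold change beyond 0.58 in either direction, between MRC5_coH196 and MRC5_Mo, 0.554% between MRC5_coH69 and MRC5_Mo, and 3.86% between H196_Co and H196_Mo. The split of these calls into higher and lower depended on the scale. The majority turned in both contrasts of MRC5_coH196 and stayed higher in MRC5_coH69 against MRC5_Mo and in H196_Co against H196_Mo. In MRC5_coH196 against MRC5_Mo, 2207 genes were higher and 1885 lower on TMM-scaled counts, but 915 were higher and 2082 lower on log2(FPKM + 1), where the median of all genes moved from -0.003 to -0.13. Likewise 1943 were higher and 1675 lower in MRC5_coH196 against MRC5_coH69 on counts, but 821 and 1746 on log2(FPKM + 1), and 54 and 17 in MRC5_coH69 against MRC5_Mo became 17 and 1. In H196_Co against H196_Mo the 417 higher and 77 lower genes became 149 and 46 on log2(FPKM + 1), and 306 and 111 on log2(FPKM + 0.1).

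The promoters of 4 members on which the results turn are shown first, since elements through which the pathway is known to act can lie close to their starts. Each is 250 bases before to 50 bases after the RefSeq start of the GRCh38.p14 assembly, 5′ to 3′ on the strand of the gene. Capitals mark CArG boxes, the CRE core TGACG and the 8-base AP-1 site TGACATCA, each searched on both strands. EGR1 (chr5:138465229-138465528, plus strand) has 2 CArG boxes, FOS (chr14:75278578-75278877, plus strand) has a CRE core, JUN (chr1:58783998-58784297, minus strand) has besides a CRE core the AP-1-like element that c-Jun itself is known to bind, and NR4A3 (chr9:99821635-99821934, plus strand) has 4 CRE cores.
EGR1: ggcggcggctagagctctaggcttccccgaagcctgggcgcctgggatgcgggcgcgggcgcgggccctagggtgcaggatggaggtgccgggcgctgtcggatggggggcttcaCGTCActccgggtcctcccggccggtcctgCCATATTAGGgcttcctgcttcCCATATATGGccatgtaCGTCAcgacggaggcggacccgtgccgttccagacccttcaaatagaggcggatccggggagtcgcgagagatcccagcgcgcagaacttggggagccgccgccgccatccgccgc
FOS: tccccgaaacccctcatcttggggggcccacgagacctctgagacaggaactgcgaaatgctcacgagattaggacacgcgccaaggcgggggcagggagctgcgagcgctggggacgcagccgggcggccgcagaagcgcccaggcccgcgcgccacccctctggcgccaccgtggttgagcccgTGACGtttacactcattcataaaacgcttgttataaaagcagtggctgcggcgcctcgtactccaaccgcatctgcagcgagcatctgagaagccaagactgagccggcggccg
JUN: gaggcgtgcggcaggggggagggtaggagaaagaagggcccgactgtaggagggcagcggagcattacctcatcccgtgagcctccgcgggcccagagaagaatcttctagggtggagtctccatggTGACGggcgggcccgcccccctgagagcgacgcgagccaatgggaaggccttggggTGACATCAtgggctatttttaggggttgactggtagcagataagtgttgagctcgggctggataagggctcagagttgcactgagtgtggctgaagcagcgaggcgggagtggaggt
NR4A3: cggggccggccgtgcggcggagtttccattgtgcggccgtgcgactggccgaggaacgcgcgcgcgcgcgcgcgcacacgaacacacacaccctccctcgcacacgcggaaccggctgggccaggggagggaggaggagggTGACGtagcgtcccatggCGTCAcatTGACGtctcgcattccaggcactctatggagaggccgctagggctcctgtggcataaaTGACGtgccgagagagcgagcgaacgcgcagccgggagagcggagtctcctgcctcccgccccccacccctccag

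In the EGR1 window the CArG boxes began 105 and 83 bases before the start and CRE cores began at 135 and 66 bases before it. The JUN window held TGACATCA at 67 bases before the start and a CRE core at 123, and the FOS window held a single CRE core at 64 bases before the start. Promoter windows were found for 8 of the 10 members, 11 windows in all, and not for EGR3 and FOSL1. A CArG box was found for 2 members, EGR1 and EGR2, against 1.29% of all 35116 windows of the same length. Bases further from the start were not searched, so a window without a CArG box, such as that of FOS, does not mean that the gene lacks one. A CRE core was found for 7 members, against 24.6% of windows, and TGACATCA for 1 member against 2.61%. The EGR site GCGNGGGCG was found for EGR1 and EGR2, against 9.43% of windows. No member window held the full CRE TGACGTCA (1.85% of windows), which contains the CRE core, the 7-base AP-1 site TGANTCA (7.71%) or the NR4A element AAAGGTCA (1.22%). The core ACGTG or GCGTG of hypoxia elements was also searched, and was found for all 8 members with windows, against 48.4% of windows. These are matches of letters and not measured binding. NR4A1, whose level differed in fibroblasts, had none of the elements named here in its windows except this hypoxia core.

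Levels between genes are compared per length, in FPKM (fragments scaled to transcript length and library total). FPKM was computed by the authors separately for the fibroblast and the H196 table, so levels set across the lines are a description. Mean FPKM ran from 0.0133 for EGR3 in H196_Mo to 256 for FOSL1 in H196_Co, and the order of the groups differed from gene to gene. FOSL1 had the highest mean of the 10 members in 4 of the 5 groups. In MRC5_coH196 it stood at 133 ± 16.6 (SD, n = 3) and JUN at 135 ± 5.27, which overlap. EGR1, JUN and JUNB were above 8 FPKM in every library, FOS lay between 0.40 and 10.92 and NR4A1 between 2.70 and 9.13, and EGR2, EGR3, FOSB and NR4A3 stayed below 1 FPKM in every library.

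**Figure D1:**
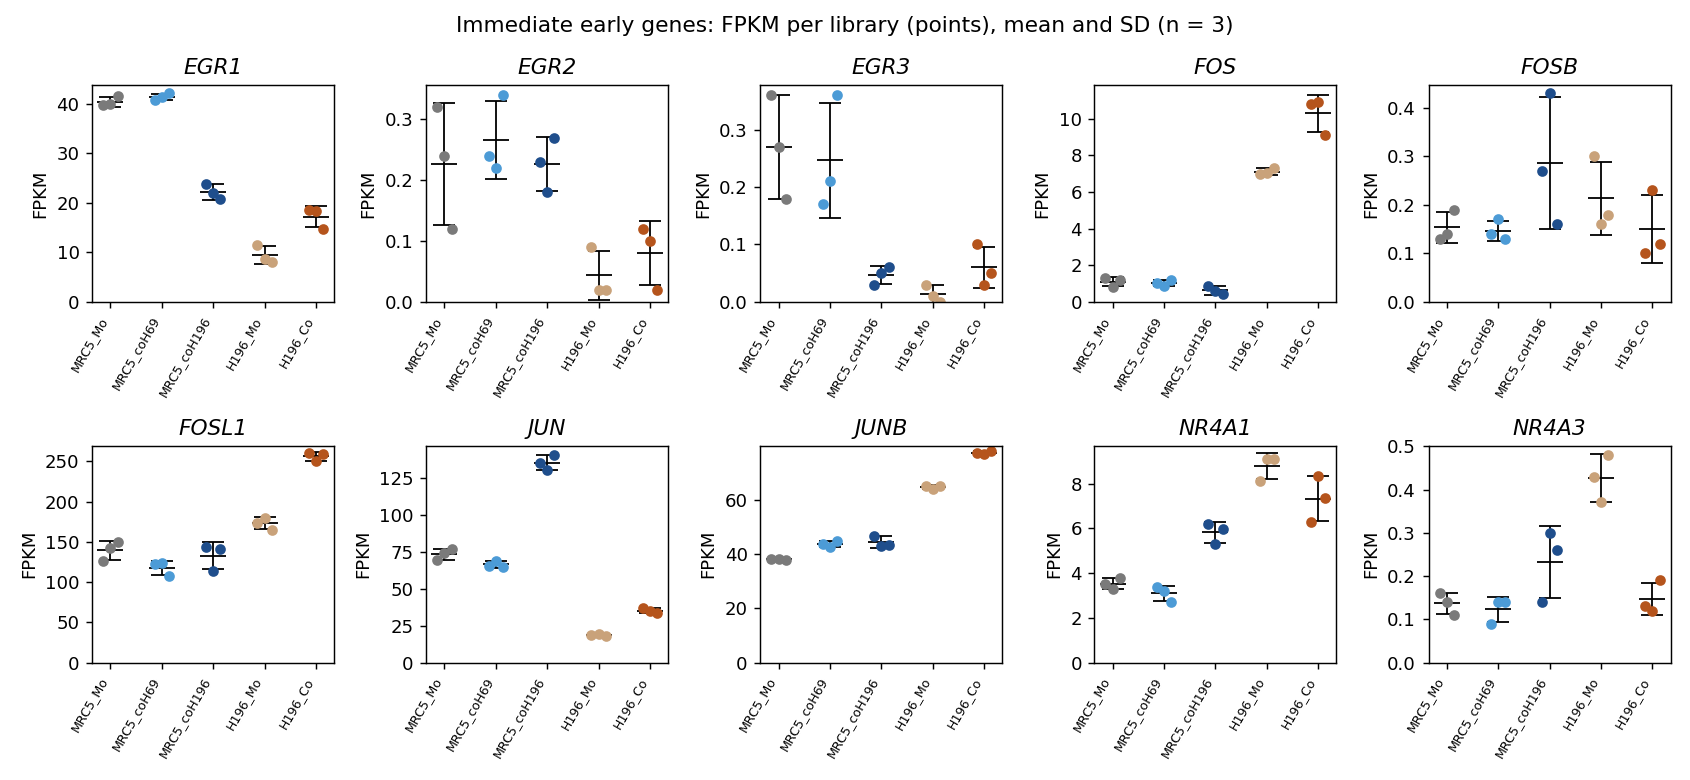
FPKM of each member (vertical axis, linear from 0, with its own range per gene) in the 15 libraries, by group on the horizontal axis, with the mean and SD of 3 libraries as bars. EGR1 and JUN separate MRC5_coH196 from both other fibroblast groups in opposite directions, and FOSL1, JUN and JUNB are higher in H196_Co than in H196_Mo.

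EGR1, the prototype serum-response zinc finger factor (chromosome 5, 138465479 to 138469303 in the deposited GRCh38.p13 annotation), was lower in fibroblasts cultured with H196 and higher in H196 cells cultured with fibroblasts. Its FPKM was 39.76, 39.89 and 41.61 in the MRC5_Mo libraries, 40.80, 41.33 and 42.07 in MRC5_coH69, and 23.78, 21.96 and 20.69 in MRC5_coH196. In H196 cells it was 11.56, 8.73 and 8.01 alone and 18.46, 18.33 and 14.72 in co-culture. Every MRC5_coH196 library was below every other fibroblast library, every H196_Co library was above every H196_Mo library, and fibroblasts with H69 overlapped fibroblasts alone. On the log2 scale of TMM-scaled counts EGR1 differed by -0.69 (SE 0.050) between MRC5_coH196 and MRC5_Mo, and H196_Co exceeded H196_Mo by 0.95 (SE 0.11). Between the lines cultured alone, the mean FPKM in MRC5_Mo was 4.28 times that in H196_Mo, and in co-culture the order was kept with no overlap, 22.1 ± 1.55 (SD, n = 3) in MRC5_coH196 against 17.2 ± 2.12 in H196_Co.

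EGR2 and EGR3, related zinc finger factors of the same family, were near the limit of detection. EGR2 had 16, 12 and 6 counts in MRC5_Mo, 12, 11 and 17 in MRC5_coH69 and 12, 8 and 14 in MRC5_coH196, which overlap, and 1 to 5 counts in H196 libraries. EGR3 had 28, 19 and 13 counts in MRC5_Mo, 13, 14 and 26 in MRC5_coH69 and 2, 3 and 4 in MRC5_coH196. The EGR3 counts with H196 were thus below those of every other fibroblast library, with a fitted log2 difference to MRC5_Mo of -2.53 (SE 0.47) on TMM-scaled counts that rests on single-digit counts. It was -1.31 on log2(FPKM + 0.1) and -0.28 on log2(FPKM + 1), so the size of the EGR3 difference depended on the scale. In H196 cells EGR3 had 2, 1 and 0 counts alone and 6, 2 and 3 in co-culture, and since H196_Mo lay at or under the floor of 3 counts no fold is given. Neither EGR2 nor EGR3 passed the count filter for H196 cells, so 8 of the 10 members remained there.

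JUN, the AP-1 subunit c-Jun (chromosome 1, 58780791 to 58784396), was higher in both cell lines when MRC5 and H196 were cultured together. Its FPKM was 69.00, 73.69 and 76.62 in MRC5_Mo, 65.27, 68.92 and 64.73 in MRC5_coH69, and 134.91, 129.87 and 140.41 in MRC5_coH196. In H196 it was 18.33, 19.15 and 17.90 alone and 36.70, 35.06 and 33.29 with fibroblasts. Neither MRC5_coH196 nor H196_Co overlapped its mono-culture, and the fitted log2 differences were 1.06 (SE 0.048) in fibroblasts and 1.0004 (SE 0.073) in H196. JUN with H69 was below mono-culture in FPKM but overlapped it in CPM, at -0.13 (SE 0.049). The difference between the fibroblast and H196 responses was 0.04 (SE 0.087), and its sign turned on FPKM scales, so the sizes in the lines could not be ordered. JUN remained 3.96 times as high in MRC5_Mo as in H196_Mo by mean FPKM.

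JUNB, a JUN protein with weaker transactivation than c-Jun, showed smaller differences in the same direction as JUN where MRC5 and H196 were cultured together. With H69 the signs of JUNB and JUN differed, with JUN at -0.13 (SE 0.049). FPKM was 38.21, 38.16 and 37.82 in MRC5_Mo, 43.59, 42.38 and 44.69 in MRC5_coH69 and 46.75, 42.80 and 43.31 in MRC5_coH196, so both fibroblast co-cultures lay above fibroblasts alone. It was 65.11, 63.90 and 65.04 in H196_Mo and 77.07, 76.82 and 77.86 in H196_Co, with no overlap. The log2 differences were 0.39 (SE 0.050) with H196, 0.20 (SE 0.050) with H69 and 0.33 (SE 0.067) in H196 cells, all under the limit of 0.58. On log2(FPKM + 1) they were 0.21, 0.19 and 0.25, so the gap between H196 and H69 as partners depended on the scale. With H69, then, JUNB did not overlap mono-culture, whereas EGR1 and EGR3 did.

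FOS, the founding AP-1 partner of JUN (chromosome 14, 75278828 to 75282230), was low in fibroblasts and several-fold higher in H196 cells. Its FPKM was 1.29, 0.82 and 1.18 in MRC5_Mo, 1.01, 0.86 and 1.18 in MRC5_coH69 and 0.86, 0.60 and 0.40 in MRC5_coH196. In H196 cells it was 6.97, 7.04 and 7.32 alone and 10.82, 10.92 and 9.12 in co-culture. The fibroblast groups overlapped and the H196 groups did not. The fitted log2 difference was -0.65 (SE 0.26) in MRC5_coH196 and 0.61 (SE 0.098) in H196_Co, and both stood close to the limit. Without MRC5_coH196 replicate 3 the fibroblast value was -0.42, and it also left the call without MRC5_coH196 replicate 2 (-0.60), MRC5_Mo replicate 1 (-0.51) or MRC5_Mo replicate 3 (-0.59). The H196 value left the call without H196_Mo replicate 1 (0.578), H196_Co replicate 1 (0.56) or H196_Co replicate 2 (0.57).

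FOSL1, which encodes FRA-1 and lacks the strong activation domain of FOS, was the most abundant FOS family transcript per length. FPKM was 126.50, 142.22 and 149.33 in MRC5_Mo, 121.98, 123.17 and 107.89 in MRC5_coH69 and 143.22, 113.78 and 141.73 in MRC5_coH196. In H196 cells it was 174.00, 179.96 and 165.00 alone and 260.14, 250.14 and 258.93 with fibroblasts. Fibroblasts with H196 overlapped fibroblasts alone, and the sign of their difference depended on the scale, 0.12 (SE 0.074) on TMM-scaled counts and -0.07 on log2(FPKM + 1). Fibroblasts with H69 differed from fibroblasts alone by -0.24 (SE 0.074), and H196_Co lay above H196_Mo by 0.65 (SE 0.068), without overlap in either. FOSB, a FOS paralog induced with it, had 8, 9 and 12 counts in MRC5_Mo, 9, 11 and 8 in MRC5_coH69, 18, 28 and 10 in MRC5_coH196, 17, 10 and 11 in H196_Mo and 6, 13 and 7 in H196_Co. The FOSB groups overlapped in each comparison. Its fitted 1.10 (SE 0.36) in MRC5_coH196 against MRC5_Mo became 0.68 without MRC5_coH196 replicate 2, the library with 28 counts.

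NR4A1 (Nur77), an orphan receptor that many signals induce, was higher in fibroblasts with H196 than in other fibroblasts, and highest in H196 cells. FPKM was 3.50, 3.29 and 3.79 in MRC5_Mo, 3.37, 3.20 and 2.70 in MRC5_coH69 and 6.19, 5.31 and 5.98 in MRC5_coH196, against 8.12, 9.12 and 9.13 in H196_Mo and 6.31, 8.33 and 7.36 in H196_Co. All MRC5_coH196 libraries lay above the other fibroblast libraries, with a log2 difference of 0.89 (SE 0.10) to MRC5_Mo, while H196_Co overlapped H196_Mo at -0.16 (SE 0.10). NR4A3 (NOR1; chromosome 9, 99821885 to 99866893), its paralog, went apart between the lines. It had 16, 14 and 11 counts in MRC5_Mo, 9, 14 and 14 in MRC5_coH69 and 14, 29 and 26 in MRC5_coH196, whose lowest library overlapped MRC5_Mo. In H196 it had 37, 34 and 44 counts alone and 12, 11 and 17 in co-culture, which do not overlap. The log2 differences were 0.90 (SE 0.31) in fibroblasts and -1.45 (SE 0.25) in H196, and the fibroblast value was 0.70 without MRC5_coH196 replicate 2 and no longer called.

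**Figure D2:**
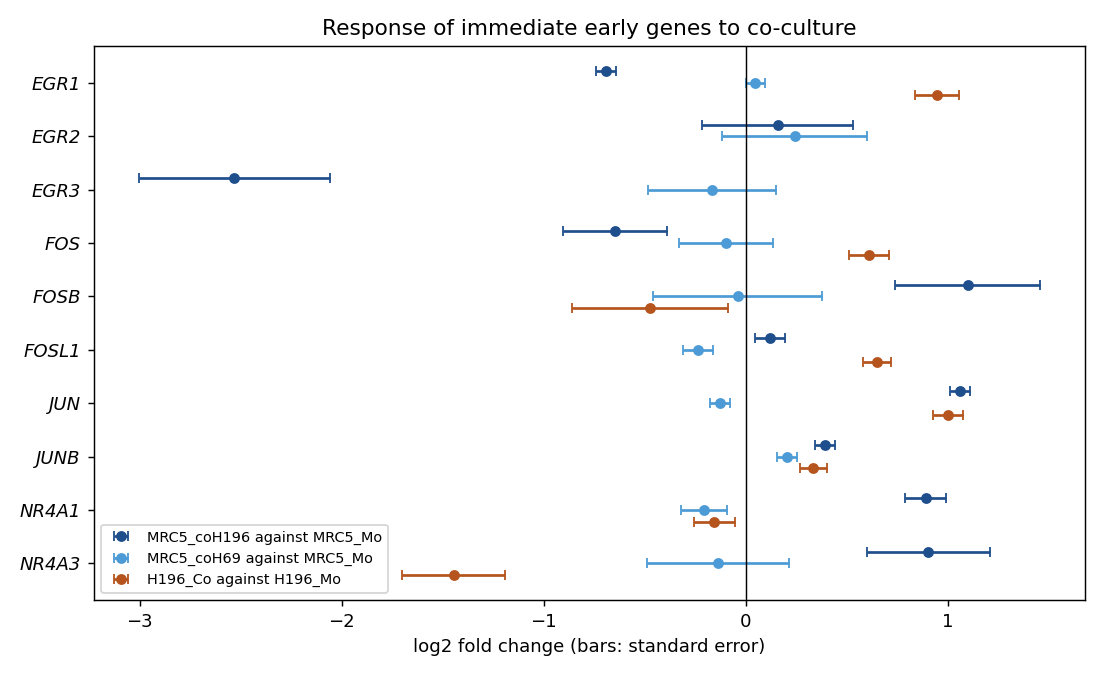
Fitted log2 fold change of each member on TMM-scaled counts (horizontal axis, bars are standard errors) for fibroblasts with H196, fibroblasts with H69 and H196 cells with fibroblasts, each against its mono-culture. JUN lies near 1 in both lines where MRC5 and H196 were cultured together, and EGR1 lies at -0.69 in fibroblasts and 0.95 in H196. EGR2 and EGR3 have no H196 point because they did not pass the count filter.

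The members did not share a direction in the fibroblasts. Between MRC5_coH196 and MRC5_Mo, 7 of the 10 met the call limits, beside 31.9% of all genes. They were 4 higher (FOSB, JUN, NR4A1 and NR4A3), beside 17.2% of all genes, and 3 lower (EGR1, EGR3 and FOS), beside 14.7%. Their libraries did not overlap for 5 of 10, beside 75.5% of all genes. Since the choice of members used these contrasts, nothing is read from these counts. With H69 as the partner 0 of the 10 met the call limits, beside 0.554% of all genes, which is a description too. FOSL1 and JUNB were the 2 members whose libraries with H69 did not overlap mono-culture, beside 25.7% of all genes. The fibroblast co-cultures against each other gave 6 members past the limits, beside 28.2% of genes, and 7 without overlap, beside 73.1%, with log2 differences of -0.74 (SE 0.050) for EGR1, 1.19 (SE 0.048) for JUN and 1.10 (SE 0.10) for NR4A1. This last contrast shares its MRC5_coH196 libraries with the first. Overlap was counted in CPM, and in FPKM the fibroblast co-cultures overlapped or touched for FOSL1, JUNB and NR4A3.

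In H196 cells 5 of the 8 members that passed the filter met the limits, beside 3.86% of all genes. They were 4 higher (EGR1, FOS, FOSL1 and JUN), beside 3.26% of all genes, and 1 lower (NR4A3), beside 0.601%. As in fibroblasts, nothing is read from these counts. Their libraries did not overlap for 6 of 8, beside 37.2%. Of these 8 members, 5 had opposite signs in fibroblasts and H196 cells (62.5%, against 38.1% of the 11743 genes tested in both lines). Direction in the lines was in view when the members were chosen, so nothing is read from this share either. The signs include overlapping groups, since FOS and NR4A3 overlapped in fibroblasts, NR4A1 in H196 cells and FOSB in both. EGR1 and FOS were past the limits in both lines, lower in fibroblasts and higher in H196, which held for 11 of all genes. NR4A3 was past them in the reverse directions, which also held for 11 of all genes, and JUN was past them upwards in both lines, which held for 220. The responses of the lines differed by -1.66 (SE 0.13) for EGR1, -1.28 (SE 0.27) for FOS, 1.02 (SE 0.15) for NR4A1 and 2.33 (SE 0.41) for NR4A3, given as fibroblast minus H196 and untested, where 24.5% of all genes met the limits.

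The make-up of the AP-1 transcript pool differed between the lines, mostly in the JUN family. FOSL1 held 87.0% ± 0.70 (SD, n = 3) of the summed FOS family FPKM in MRC5_Mo, 84.8% ± 0.95 in MRC5_coH69 and 80.3% ± 1.27 in MRC5_coH196, and 91.0% ± 0.24 in H196_Mo and 91.4% ± 0.64 in H196_Co. The lower share with H196 was matched by FOSL2 (FRA-2), which held 12.2% ± 0.59 in MRC5_Mo and 19.1% ± 1.11 in MRC5_coH196. FOS held 0.692% ± 0.19 in MRC5_Mo, 0.377% ± 0.13 in MRC5_coH196, 3.75% ± 0.25 in H196_Mo and 3.67% ± 0.38 in H196_Co. In H196 cells the family sum went from 190 ± 7.79 to 280 ± 4.66 FPKM with the FOSL1 share overlapping. In the JUN family, JUN held 55.8% ± 2.10 in MRC5_Mo, 49.7% ± 1.25 in MRC5_coH69 and 65.6% ± 1.56 in MRC5_coH196, while in H196 cells JUNB held most, 63.4% ± 0.95 alone and 58.8% ± 0.84 in co-culture. The JUN share in H196 was 18.1% ± 0.55 alone and 26.7% ± 1.09 in co-culture. In this share neither MRC5_coH196 nor H196_Co overlapped its mono-culture. The summed JUN family FPKM was 131 ± 2.05 in MRC5_Mo and 206 ± 5.53 in MRC5_coH196, and 102 ± 0.46 in H196_Mo and 131 ± 1.59 in H196_Co. Shares by counts, which are not corrected for length, put FOSL1 at 60.6% in MRC5_Mo and 48.2% in MRC5_coH196. There the order of the FOS family turned, with FOSL2 at 51.3% and above FOSL1 in all 3 MRC5_coH196 libraries.

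**Figure D3:**
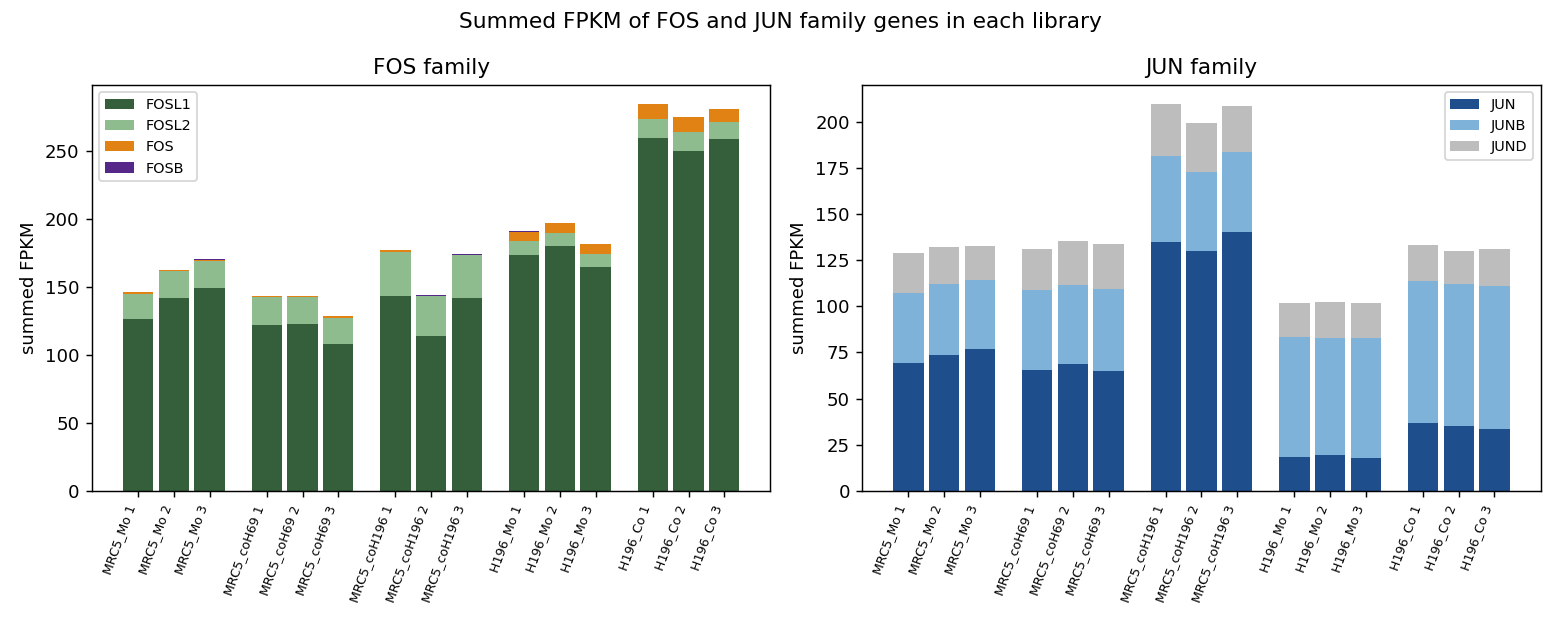
Summed FPKM (vertical axis, from 0) of the FOS family (left) and the JUN family (right) in each of the 15 libraries (horizontal axis, group and replicate), with colours for the genes. FOSL1 fills most of every FOS family bar. In the JUN family, JUN is the largest part of every fibroblast bar and JUNB fills most of every H196 bar.

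Other immediate early genes of the pathway, 24 in a list that holds no member, were tested in the same fits. In counts of list genes here and below, rose and fell mean called higher and called lower. Genes that differed in either direction below the limit are not counted. In MRC5_coH196 against MRC5_Mo, 11 of 22 tested rose and 1 fell, with a median log2 difference of 0.54 beside -0.003 over all genes and 31.9% of all genes called. NFIL3, a bZIP repressor, rose by 2.51 (SE 0.053, edgeR adjusted p = 1.28e-22), from a mean of 17.6 to 89.5 FPKM. GADD45B, a stress-inducible growth arrest protein, rose by 1.76 (SE 0.066, adjusted p = 1.32e-17), and IER3, an immediate early regulator of survival, rose by 1.55 (SE 0.056, adjusted p = 5.49e-18). PLK2, a polo-like kinase, was the gene of this list called lower, at -0.80 (adjusted p = 2.47e-13), and is named here with its value in view. RHOB and IER2 were also lower without overlap, but below the limit. FOSL2 rose by 0.86 (adjusted p = 5.50e-14) and JUND by 0.58 (adjusted p = 1.25e-08), the remaining genes of the FOS and JUN families. The JUND value lay at the limit and its call ended without MRC5_Mo replicate 3 (0.52), MRC5_coH69 replicate 2 (0.579) or MRC5_coH196 replicate 1 (0.54).

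In H196_Co against H196_Mo, 5 of 23 tested genes of that list rose and 1 fell, beside 3.86% of all genes. KLF2, a Krüppel-like factor, rose by 1.03 (SE 0.10, adjusted p = 3.35e-07) and MAFF, a small MAF protein, by 0.87 (SE 0.091, adjusted p = 9.06e-07). NR4A2 (Nurr1), the third NR4A receptor, fell by 1.12 (SE 0.13, adjusted p = 2.75e-06), from 200, 238 and 244 counts to 90, 90 and 119, without overlap, and so lay on the same side as NR4A3. In MRC5_coH196, NR4A2 was at -0.08 (adjusted p = 0.748) with 27 to 32 counts. NFIL3, by contrast with fibroblasts, was at 0.20 in H196_Co (adjusted p = 0.220), and the difference between the responses was 2.30 (SE 0.13, adjusted p = 2.52e-13).

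The list of ERK feedback genes stands for transcription downstream of ERK. Most of its genes encode phosphatases or inhibitors that restrain MAP kinase signalling. It also holds the ETS factors ETV1, ETV4 and ETV5 as well as PHLDA1 and CCND1, so its counts are not those of inhibitors alone. In MRC5_coH196, 6 of 17 rose and 1 fell, with a median of 0.42, beside 17.2% of all genes higher and 14.7% lower. DUSP1, a nuclear MAP kinase phosphatase, rose by 1.97 (SE 0.073, adjusted p = 9.31e-18), from 71.1 ± 6.78 to 247 ± 30.2 FPKM (n = 3). SPRY1, a Sprouty inhibitor of receptor tyrosine kinase signalling, rose by 1.97 (SE 0.17, adjusted p = 9.59e-11), and DUSP2 fell by 1.64 (SE 0.43, adjusted p = 0.00157), from 11 to 15 counts to 3 to 5. In H196_Co only DUSP5, an ERK-specific phosphatase, was called among 16, beside 3.86% of all genes, with 0.74 (SE 0.077, adjusted p = 9.06e-07). For SPRY1 and DUSP1 the responses of the lines differed by 1.88 (SE 0.16, adjusted p = 3.51e-10) and 1.62 (SE 0.14, adjusted p = 9.17e-10).

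Of 12 SRF, TCF and CREB genes, which act upstream of the members, 1 rose and 2 fell in MRC5_coH196, beside 17.2% and 14.7% of all genes. ELK3, a TCF with repressor activity, rose by 0.89 (SE 0.049, adjusted p = 2.13e-14), while SRF itself fell by 0.76 (SE 0.050, adjusted p = 7.81e-13), from 28.8 ± 0.51 to 14.7 ± 0.48 FPKM. CRTC1, a CREB coactivator, was at -0.58 (SE 0.082, adjusted p = 6.35e-07), at the limit, and left the call without MRC5_Mo replicate 1 (-0.54) or MRC5_coH196 replicate 2 (-0.49). Among 13 MAP kinase genes 3 rose and 0 fell, beside the same shares of all genes. MAP2K1 (the ERK kinase MEK1) rose by 1.04 (SE 0.048, adjusted p = 6.44e-16), RPS6KA1 (the ERK-activated kinase RSK1) by 0.75 (SE 0.12, adjusted p = 2.53e-06) and MAPK8 (JNK1, which phosphorylates c-Jun) by 0.61 (SE 0.058, adjusted p = 1.01e-09). MAPK8 stood at 0.55 without MRC5_Mo replicate 1, which ended its call. In H196_Co, where 3.86% of all genes were called, the single call of these lists was MAPK7 (ERK5) at 0.61 (SE 0.090, adjusted p = 6.80e-05). It ended without H196_Mo replicate 1 (0.57), H196_Mo replicate 3 (0.55) or H196_Co replicate 2 (0.57).

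Partners of AP-1, EGR and NR4A proteins showed 4 genes that rose and 1 that fell of 10 in MRC5_coH196, beside 17.2% and 14.7% of all genes. MAFK, a small MAF, rose by 1.11 (SE 0.065, adjusted p = 8.59e-14) and JDP2, a repressor that dimerizes with c-Jun, by 1.10 (SE 0.054, adjusted p = 2.25e-15). BATF3, a JUN-binding bZIP factor, was at -0.74 (SE 0.26, adjusted p = 0.0125) on 12 to 31 counts, and its call ended without MRC5_Mo replicate 2 (-0.64) or MRC5_coH196 replicate 3 (-0.61). NAB2, the corepressor of EGR1 and EGR2, is named here with its value in view. In fibroblasts it was higher with H196 without overlap but below the limit, at 0.32 (SE 0.046, edgeR adjusted p = 1.27e-06). Its level was 40.9 ± 1.61 FPKM with H196 and 37.1 ± 0.98 alone.

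Genes with known AP-1 or EGR sites went both ways in MRC5_coH196, where 5 of 12 rose and 3 fell, beside 17.2% and 14.7% of all genes. PTGS2 (the prostaglandin synthase COX-2) rose by 3.53 (SE 0.17, adjusted p = 1.79e-15), from 20, 50 and 53 counts to 415, 449 and 410. CXCL8 (interleukin 8) rose by 2.41 (SE 0.16, adjusted p = 1.50e-12). PLAU (urokinase), CCL2 (a monocyte chemokine) and PDGFA (a growth factor) were the 3 that fell, by 1.10, 0.65 and 0.67 (adjusted p = 1.59e-17, 7.50e-09 and 0.000698), and CCL2 and PDGFA are named here with their values in view. The PDGFA call ended without MRC5_coH196 replicate 3 (-0.56). In H196_Co 2 of 9 rose and 1 fell, beside 3.26% and 0.601% of all genes. There PLAUR (the urokinase receptor) rose by 0.73 (SE 0.078, adjusted p = 1.26e-06), CCL2 fell by 1.93 (SE 0.42, adjusted p = 0.00297) on 2 to 17 counts, and PDGFA was at 1.40 (SE 0.38, adjusted p = 0.0140) on 2 to 21 counts. PDGFA left the call without H196_Mo replicate 1 (0.98) or H196_Co replicate 3 (1.30).

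Heat shock genes, known targets of the stress factor HSF, were listed for comparison and fell with H196, 6 of 9 with a median of -0.91, beside 14.7% of all genes lower. HSPH1 fell by 1.43 (SE 0.054, adjusted p = 1.24e-17), HSPA8 by 1.08 (SE 0.042, adjusted p = 2.21e-17) and HSPE1 by 1.03 (SE 0.069, adjusted p = 1.06e-12), chaperones of the cytosol and the mitochondrion. HSPA1A and HSPA1B are near-identical copies, so how their reads were divided is uncertain. In H196_Co the 3 lists of heat shock, partner and SRF, TCF and CREB genes gave 0 calls among 31 tested genes, beside 3.86% of all genes, by edgeR, DESeq2 and limma, with 9 at an unadjusted p under 0.05. By edgeR 2 partner genes and 2 SRF, TCF and CREB genes had an adjusted p under 0.05, all below the fold limit. NAB2 lay just under that limit, at 0.579 (SE 0.070, edgeR adjusted p = 6.59e-06), without overlap.

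With H69, calls in the lists were few. Of the target genes 2 of 12 were called, beside 0.554% of all genes, CCL2 at 0.68 (SE 0.060, adjusted p = 2.69e-08) and CXCL8 at 0.69 (SE 0.20, adjusted p = 0.0375). The CXCL8 call ended without MRC5_Mo replicate 1 (0.56), 2 (0.81) or 3 (0.71) and without MRC5_coH69 replicate 1 (0.61) or 3 (0.63). The other 6 lists gave 0 calls among 83 tested genes by edgeR, DESeq2 and limma, with 24 at an unadjusted p under 0.05. By edgeR 5 other immediate early genes, 3 ERK feedback genes and 1 heat shock gene had an adjusted p under 0.05, all below the fold limit. Against fibroblasts with H69, fibroblasts with H196 differed in NFIL3 by 2.63 (SE 0.054, adjusted p = 6.69e-23), in DUSP1 by 1.82 (SE 0.073, adjusted p = 4.91e-17), in PTGS2 by 3.03 (SE 0.16, adjusted p = 1.26e-14) and in SRF by -0.81 (SE 0.050, adjusted p = 2.61e-13).

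Some calls of list genes did not hold with another test. On log2(FPKM + 1) with limma, the calls of DUSP2, RPS6KA1, MAPK8, JUND and PDGFA in MRC5_coH196, of MAPK7 and PDGFA in H196_Co and of CXCL8 in MRC5_coH69 ended, and with DESeq2 those of BATF3 and CRTC1 in MRC5_coH196 and of CXCL8 in MRC5_coH69. DESeq2 gave CCL2 and PDGFA in H196_Co no adjusted p.

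**Figure D4:**
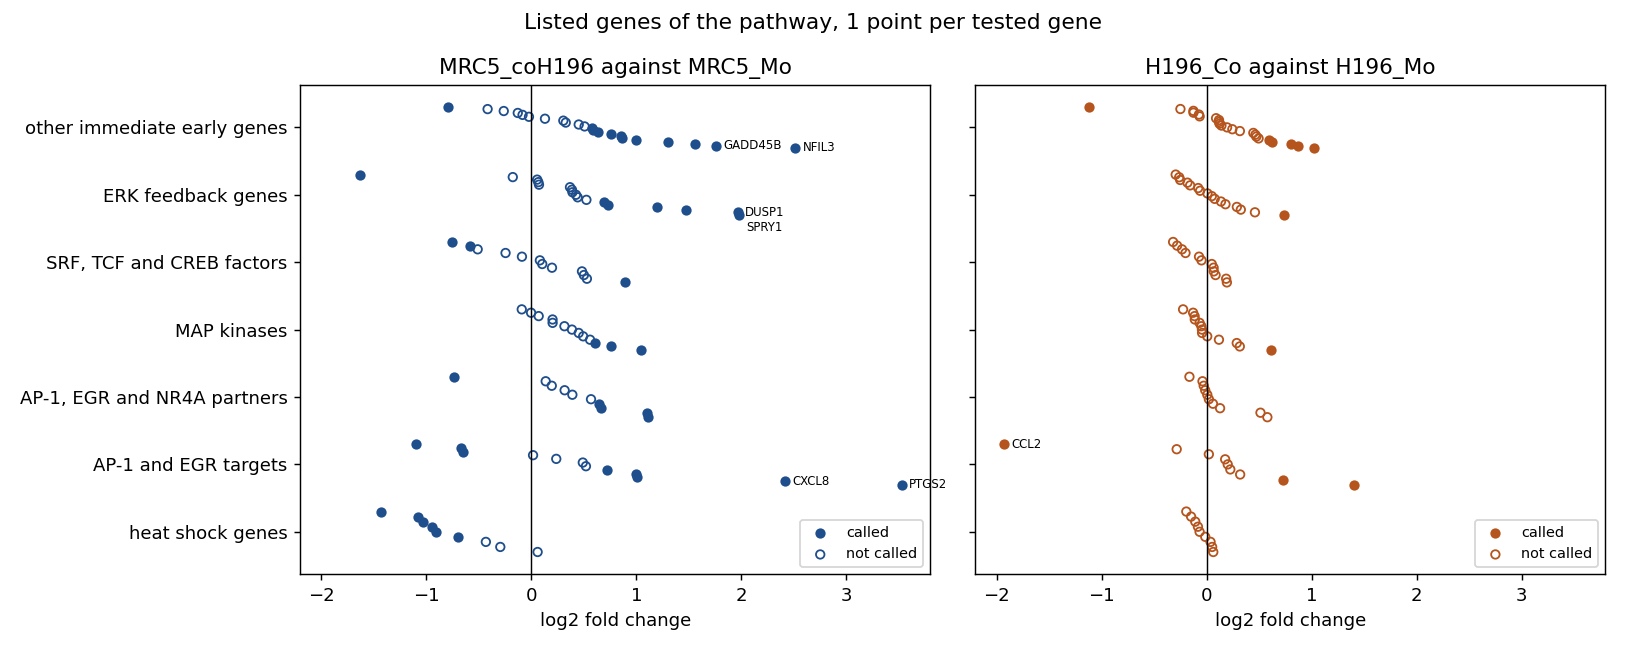
Fitted log2 fold change (horizontal axis) of every tested gene in 7 lists (vertical axis, no member included) for MRC5_coH196 against MRC5_Mo (left) and H196_Co against H196_Mo (right), filled where called. Fibroblasts show 6 of 17 ERK feedback genes called higher and 6 of 9 heat shock genes called lower, beside 17.2% and 14.7% of all genes. H196 cells show 1 of 16 and 0 of 9, beside 3.26% and 0.601%.

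The genes whose levels ran most like the mean of the members over the 15 libraries were KLF16 (Pearson r = 0.964), TENT4A (0.961), RAB3B (0.961), WASF2 (0.960) and GPC2 (0.959), among 11146 genes. The mean was taken over the 8 members that passed the filter in both tables. Each gene was standardised within its cell line, so the values follow the partner and not the line, and libraries of a group are not independent points of the likeness. Each of these 8 members is part of the mean, which raises its own r. JUN stood at 0.94, JUNB at 0.80 and FOSL1 at 0.74, while NR4A3 (0.07), FOS (0.03) and EGR1 (-0.25) did not follow it.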

How the data were processed

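The study sequenced messenger RNA of MRC5 and H196 cells on a BGIseq-500. Per the study's methods and the submitters' processing notes, reads were cleaned with SOAPnuke, aligned with HISAT (HISAT2 2.1.0) to GRCh38.p13 and with Bowtie2 2.3.4.3 to reference genes, and RSEM 1.3.1 is named among the tools. In the deposited tables, expected counts estimate the fragments of each gene and are not normalized, being whole for 93.7% (MRC5) and 92.1% (H196) of values. FPKM, also deposited, was scaled by the authors to transcript length and library total. Per-library columns of TPM and normalized counts (18 for MRC5 and 12 for H196), group averages, the authors' own fold changes and p-values, and a second copy of each table were not used here.

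Expected counts were rounded and fitted in R 4.3.3 with edgeR 4.0.16 (filterByExpr, TMM, quasi-likelihood F test, two-sided, Benjamini-Hochberg over all tested genes), with 9 MRC5 libraries, 6 H196 libraries, or 12 libraries for the difference between the responses to H196 and to MRC5. A call needed an adjusted p under 0.05 together with a log2 fold change beyond 0.58 in either direction. Standard errors were derived from the fitted change and its F statistic. Alternatives used DESeq2 1.42.0 and limma 3.58.1 on log2(FPKM + 1) or log2(FPKM + 0.1). Steps were tested on simulated data. Groups came from sample titles. Nothing says that replicates are separate cultures, so errors measure only the spread between libraries. The floor of 3 counts covers counting error only.

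Members and lists were chosen with earlier results of these data known. Named genes are all members, per list and comparison the called genes with the 3 largest absolute changes, and the 5 genes most like the members' mean. Outside this rule, FOSL2, JUND, PLK2, NAB2 and, in MRC5_coH196, CCL2 and PDGFA were named after their values were seen. Promoters are RefSeq sequence of GRCh38.p14, matched by symbol. 1 target gene is not reported here.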

Additional observations from a re-analysis of the deposited data

Results flagged for a closer look

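EGR1 went in opposite directions in the libraries of the lines, lower in every MRC5_coH196 library than in every MRC5_Mo library and higher in every H196_Co library than in every H196_Mo library, with a difference between the responses of -1.66 on the log2 scale. This difference was not tested, because EGR1 was chosen for it.

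For genes of the lists, the response of fibroblasts to H196 minus that of H196 to fibroblasts was tested by edgeR in 1 model over 12 libraries. Fibroblasts responded more in NFIL3 (2.30), GADD45B (1.29), IER3 (1.22), SPRY1 (1.88), DUSP1 (1.62), ELK3 (0.82), RPS6KA1 (0.78), BRAF (0.76), MAP2K1 (0.74), MAFK (0.96) and ATF2 (0.78). PTGS2 differed by 2.92, with 2 to 8 counts in H196 libraries. The difference was negative for DUSP2 (-2.12), SRF (-0.87), PDGFA (-2.09), PLAU (-1.35), HSPH1 (-1.37), HSPA8 (-1.08) and HSPA1A (-0.96). On log2(FPKM + 1) the differences of BRAF (0.54), RPS6KA1 (0.51) and DUSP2 (-0.54) were no longer called. DUSP2 had 3 to 20 counts in every library, and PDGFA had 2 to 21 in H196 libraries.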

How the results depend on the processing

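No result changed its sign past the call under any alternative. List genes named by the rule were followed singly, with FOSL2, JUND, PLK2, CCL2 and PDGFA in MRC5_coH196 against MRC5_Mo. Among these, 579 values kept the call and 60 lost it, and with a library left out 688 kept it and 20 lost it. The rule takes the largest changes of each list, and other called list genes were not followed singly. For members 295 values moved by less than 1 SD between replicates and 54 by more (427 and 11 with a library left out). At an absolute log2 fold change above 1, calls among list genes went from 44 to 19 (MRC5_coH196 against MRC5_Mo), 2 to 0 (MRC5_coH69 against MRC5_Mo), 40 to 17 (MRC5_coH196 against MRC5_coH69), 11 to 4 (H196) and 36 to 15 (difference of responses), and members from 7 to 3 (MRC5_coH196) and 5 to 2 (H196), since the limit itself is higher; all genes went from 4092 to 1564, 71 to 9, 3618 to 1353, 494 to 147 and 3319 to 1240. On log2(FPKM + 1) members called were 3, 3 and 2 in MRC5_coH196 against MRC5_Mo, MRC5_coH196 against MRC5_coH69 and H196, and list genes 1 (MRC5_coH69) and 6 (H196), with 18 and 195 of all genes. On log2(FPKM + 0.1) 3 members were called in H196. DESeq2 called 1 list gene and 40 of all genes with H69. With at least 10 counts in every library 4 and 3 members were called in MRC5_coH196 against MRC5_Mo and MRC5_coH69, fewer being tested. The cause of the other moves was not tested.

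With each library left out, list genes called ranged from 41 to 45, 1 to 2, 39 to 43, 9 to 12 and 35 to 42 in the order above, and members called from 4 to 7, 0 to 0, 5 to 7, 4 to 5 and 5 to 7. The 4 came without MRC5_coH196 replicate 2. FOSL1 held 86.8% to 87.4%, 84.4% to 85.3%, 79.8% to 81.1%, 90.9% to 91.1% and 91.1% to 91.7% of the FOS family in MRC5_Mo, MRC5_coH69, MRC5_coH196, H196_Mo and H196_Co, and JUN 54.7% to 56.8%, 49.1% to 50.4%, 64.8% to 66.3%, 17.8% to 18.3% and 26.2% to 27.3% of the JUN family. By counts in place of FPKM, without length correction, FOSL1 held 60.6%, 55.9%, 48.2%, 76.2% and 78.2%, and JUN 70.3%, 65.1%, 78.2%, 29.5% and 40.8%.

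Replicate numbers of the labels did not pair the libraries, as same-numbered libraries did not deviate together. With the number as a replicate block, 44, 2, 40, 11 and 37 list genes and 7, 0, 6, 5 and 6 members were called. Depth limits EGR2, EGR3, FOSB and NR4A3, whose counts stayed below 50 in every library.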
